A study of Mus musculus with 10 samples.

Results

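10 genes of the growth factor response were followed in RNA sequencing of neural stem cell cultures from mouse embryos: 4 receptors (Egfr, Fgfr1, Fgfr2 and Fgfr3) and 6 genes that ERK signalling induces (Spry1, Spry2, Spry4, Dusp6, Etv4 and Etv5). They were taken by symbol from the deposited count table, where all 10 of 10 were present among 52632 genes and all passed the filter on low counts that left 17110 genes for testing. Each of the 10 cultures was grown from the cortices of 1 embryo at embryonic day 14.5, as a monolayer on laminin, in NeuroCult proliferation medium with 20 ng/mL recombinant human EGF and 20 ng/mL recombinant human basic FGF. The groups were female Smchd1 GFP-E147A/+; XistdeltaA/+ (n = 2, from litters 1 and 2), female Smchd1 +/+; XistdeltaA/+ (n = 2, both from litter 3), male Smchd1 GFP-E147A/+; XY (n = 3, from litters 1, 1 and 3) and male Smchd1 +/+; XY (n = 3, from litters 4, 1 and 3). E147A is a mutation of SMCHD1, a chromatin protein with a part in X inactivation, and the series asks what heterozygosity for it does. A GFP tag sits on the mutant allele only, so mutation and tag cannot be told apart, and neither can genotype and litter in females. Per the labels all embryos had a Castaneus (Cast) father and a 129/C57 F1 mother. All cultures received both growth factors, so no culture shows these genes without them.

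EGF binds EGFR, and FGFs bind FGFR1 to FGFR3; these receptor tyrosine kinases signal through RAS, RAF and MEK to the kinase ERK, and cultured neural stem cells depend on this signal to keep dividing. ERK then switches on its own brakes and effectors. Sprouty proteins (Spry1, Spry2, Spry4) dampen signalling between receptor and RAF, DUSP6 is a phosphatase that inactivates ERK itself, and ETV4 and ETV5 are ETS transcription factors induced by FGF and EGF signals.

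Total counts ranged from 20648916 to 44519020 per library, and a member's counts from 202 (Fgfr2) to 31496 (Etv5). Levels are given as CPM, which are counts scaled to the TMM-normalised library size. Smchd1, the check of the genotype labels, ranged from 94.18 to 127.9 CPM in E147A/+ and from 122.5 to 191.8 CPM in +/+ cultures, which overlapped (log2 fold change -0.42, edgeR adjusted p = 0.786). Within the litters that hold both genotypes it was lower in E147A/+. It was at 120.0 to 127.9 against 150.9 CPM in litter 1, and at 94.18 against 139.8 to 191.8 CPM in litter 3. Gene counts do not read the mutation itself. Summed neural stem cell markers were between 4652 and 6702 CPM in every library. Microglial markers summed to at most 2.801 CPM and endothelial markers to at most 3.746 CPM. Oligodendrocyte lineage markers ranged from 85.44 to 452.6 CPM, highest in male +/+ replicate 1. In bulk RNA, fewer cells of a type and less RNA per cell cannot be told apart.

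Among the receptors, Egfr and Fgfr1 were abundant and even across cultures, Fgfr3 was abundant and uneven, and Fgfr2 was scarce. Per kilobase of annotated exon, the median over the 10 cultures was 32.51 CPM for Egfr, 25.78 for Fgfr3, 23.33 for Fgfr1 and 0.9481 for Fgfr2. The ranges of the first 3 overlapped (26.23 to 41.67, 9.807 to 54.92 and 19.1 to 29.08), so their order is within the spread over cultures, whereas the highest Fgfr2 value was 1.703. With the longest transcript as the length the medians were 36.07 for Egfr, 43.47 for Fgfr3, 45.71 for Fgfr1 and 2.211 for Fgfr2, which puts Fgfr1 first and leaves Fgfr2 last.

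Egfr (ENSMUSG00000020122, chromosome 11, 16752203 to 16918158, plus strand, GRCm38; like all members protein-coding in GENCODE) encodes the receptor for EGF. It stood at 416.8 and 375.0 CPM in E147A/+ females, 471.9 and 315.5 in +/+ females, 429.6, 357.0 and 297.1 in E147A/+ males, and 361.4, 377.2 and 299.5 in +/+ males. The highest culture was 1.589 times the lowest, and the 2 female +/+ cultures, litter mates, were the highest of all and the third lowest. Fgfr1 (ENSMUSG00000031565, chromosome 8, 25513654 to 25575718, plus strand) is a widely expressed FGF receptor. Its levels were 269.7 and 247.3 CPM in E147A/+ females, 287.2 and 208.7 in +/+ females, 242.2, 234.6 and 226.2 in E147A/+ males, and 201.1, 223.8 and 188.7 in +/+ males. The 3 male E147A/+ cultures lay above the 3 male +/+ cultures, while the female groups overlapped.

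Fgfr2 (ENSMUSG00000030849, chromosome 7, 130162451 to 133123350, minus strand) encodes an FGF receptor with epithelial and mesenchymal splice forms. Its annotated range reaches into Ctbp2, with which it shares 3.04% of its exon bases. Levels were 5.682 and 4.67 CPM in E147A/+ females, 17.13 and 15.8 in +/+ females, 7.474, 9.443 and 17.59 in E147A/+ males, and 10.48, 10.14 and 8.336 in +/+ males. The female E147A/+ cultures were the 2 lowest of the 10, and the female +/+ cultures were 2 of the 3 highest. The male groups overlapped, with male E147A/+ replicate 3 the highest culture of all.

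Fgfr3 (ENSMUSG00000054252, chromosome 5, 33721674 to 33737068, plus strand), an FGF receptor known from neural progenitors and astrocytes, varied most. It measured 109.0 and 91.52 CPM in E147A/+ females, 128.0 and 393.1 in +/+ females, 196.5, 187.8 and 316.1 in E147A/+ males, and 324.1, 181.4 and 70.2 in +/+ males. The range was 5.601-fold, and the 2 female +/+ litter mates differed by most of it. The summed level of 6 dorsal telencephalon markers (Emx1, Emx2, Lhx2, Neurog2, Eomes and Tbr1) was also highest in the 3 cultures with most Fgfr3: 154.0 CPM in female +/+ replicate 2, 174.2 in male +/+ replicate 1 and 184.8 in male E147A/+ replicate 3, within a range of 79.64 to 184.8. Lhx2 (median 82.05 CPM) and Emx2 (44.72 CPM) made up most of this sum, and Emx1, Neurog2, Eomes and Tbr1 had medians of at most 1.935 CPM. Of the 10 marker lists summed, this one was picked after the values were seen. The astrocyte markers had another order, with their highest sums (117.8 and 103.0 CPM) in the E147A/+ females, where Fgfr3 was low. That sum was mostly Aldh1l1 (median 56.43 CPM), since Gfap, Aqp4 and S100b had medians of 0.7801, 1.201 and 1.95 CPM. The part of either list in the Fgfr3 differences was not tested. In the annotation, 13.9% of the exon bases of Fgfr3 lie over an antisense gene, and whether the counting used strand is not given in the sources used here.

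By median, the feedback inhibitors were expressed at higher levels per kilobase than the receptors. The median was 138.3 CPM per kilobase for Spry2, 92.05 for Spry4, 81.02 for Spry1 and 76.85 for Dusp6. Even the lowest Spry2 culture (116.4) lay above every Spry1 culture (at most 88.56); the ranges of Spry4 (66.29 to 133.9) and Dusp6 (48.85 to 154.7) overlapped both.

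Spry1 (ENSMUSG00000037211, chromosome 3, 37639947 to 37644598, plus strand) was at 206.8 and 236.6 CPM in E147A/+ females, 257.3 and 246.3 in +/+ females, 226.2, 187.6 and 253.6 in E147A/+ males, and 244.5, 217.2 and 234.3 in +/+ males. An antisense gene covers 24.4% of its exon bases. Spry2 (ENSMUSG00000022114, chromosome 14, 105891947 to 105896819, minus strand) was at 286.1 and 248.1 CPM in E147A/+ females, 260.1 and 279.8 in +/+ females, 296.3, 304.7 and 305.1 in E147A/+ males, and 341.1, 291.3 and 243.0 in +/+ males. Both Sprouty genes were even: their highest culture was 1.372 (Spry1) and 1.404 times (Spry2) the lowest.

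Spry4 (ENSMUSG00000024427, chromosome 18, 38586247 to 38601415, minus strand), a Sprouty gene known as a readout of FGF signalling, was at 438.9 and 489.6 CPM in E147A/+ females, 436.5 and 426.4 in +/+ females, 447.4, 455.0 and 636.7 in E147A/+ males, and 381.4, 315.2 and 408.0 in +/+ males. All 5 E147A/+ cultures lay above all 5 +/+ cultures, by as little as 438.9 against 436.5 CPM. Dusp6 (ENSMUSG00000019960, chromosome 10, 99263231 to 99267489, plus strand) was at 178.1 and 238.7 CPM in E147A/+ females, 290.0 and 343.3 in +/+ females, 185.3, 189.6 and 310.5 in E147A/+ males, and 242.7, 153.0 and 484.4 in +/+ males. Its range was 3.166-fold, the widest of the 6 ERK targets. Its 4 highest cultures were the 4 from litter 3.

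Of the ETS factors, Etv4 was the steadiest of all members and Etv5 was next to Spry2 the most abundant per kilobase. Etv4 (ENSMUSG00000017724, chromosome 11, 101769742 to 101785371, minus strand) was at 225.2 and 182.0 CPM in E147A/+ females, 204.4 and 201.9 in +/+ females, 209.3, 193.4 and 220.8 in E147A/+ males, and 221.8, 195.6 and 171.6 in +/+ males, a 1.313-fold range. Etv5 (ENSMUSG00000013089, chromosome 16, 22381309 to 22439719, minus strand) was at 515.0 and 728.1 CPM in E147A/+ females, 579.9 and 402.8 in +/+ females, 647.9, 577.2 and 480.2 in E147A/+ males, and 564.3, 435.1 and 426.9 in +/+ males. Per kilobase, the median of Etv5 was 131.5 CPM and that of Etv4 65.43. The Etv5 range (98.16 to 177.5) lay above that of Etv4 (55.28 to 72.56) in every culture.

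**Figure D1:**
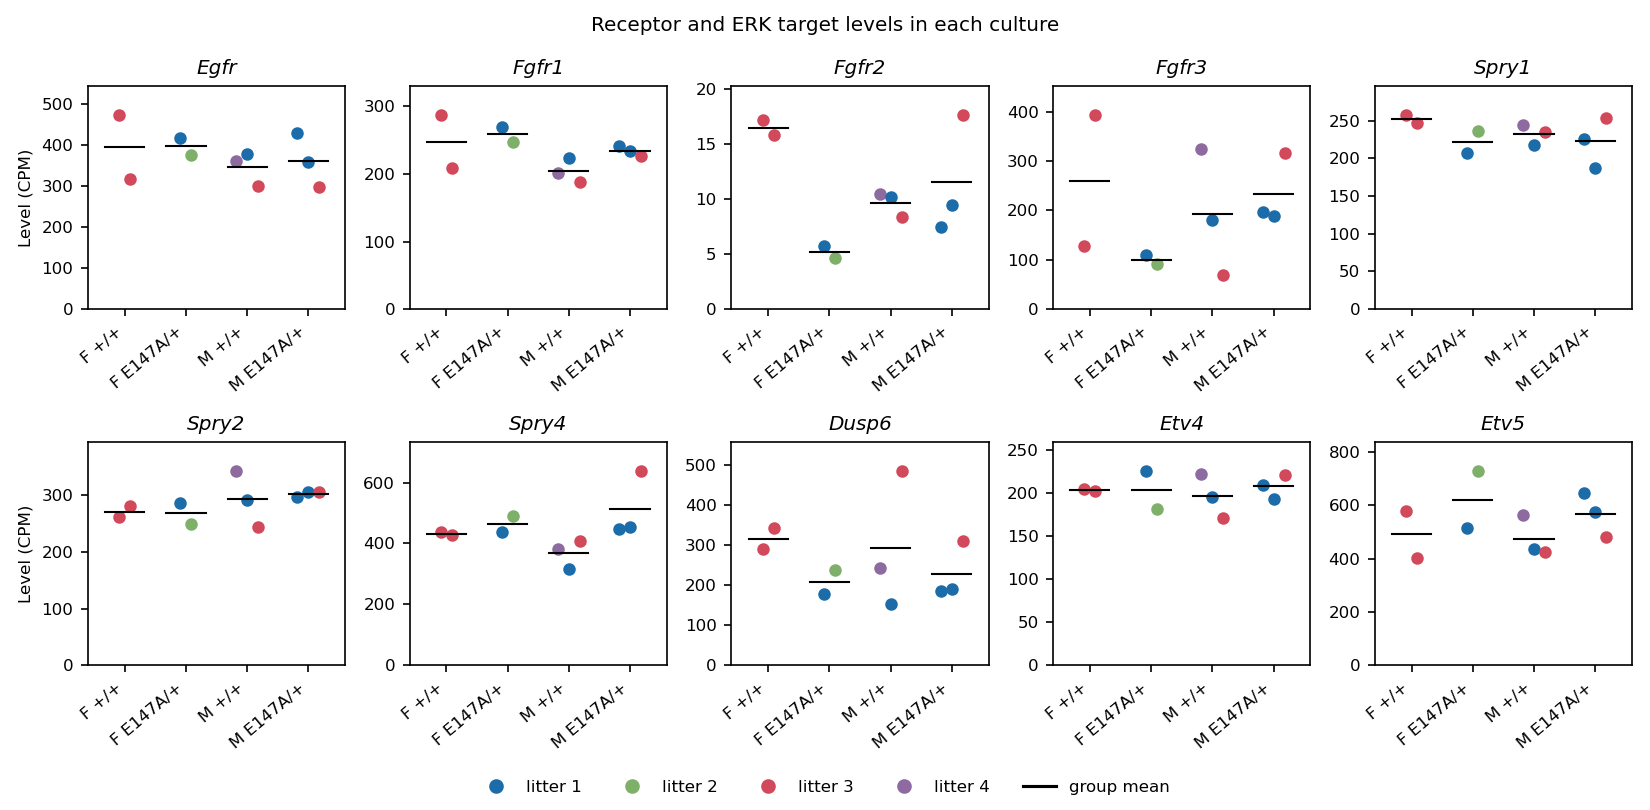
Level of each gene in CPM (y axis, from 0) in each of the 10 cultures, by sex and genotype on the x axis, with points coloured by litter and the group mean marked. Etv4 stays between 171.6 and 225.2 CPM, while Fgfr3 runs from 70.2 to 393.1 CPM.

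The steadiness of these genes was set against all tested genes by the SD of log2 CPM over the 10 cultures. The SD was below the median of all genes (0.3775) for 7 of the 10 members. Abundant genes are measured more precisely, and among 1113 genes of similar or higher level the median SD was 0.249, with 5 members below it. Against those, Etv4 lay at percentile 7.64, Spry1 at 11.3, Spry2 at 12.5 and Fgfr1 at 24.3. Dusp6 at 93.4 and Fgfr3 at 98.7 were among the most variable. Fgfr2 lay at 97.1, but it is scarcer than these genes, whose level cut was set by the lowest other member. Among all tested genes its SD lay at percentile 74.1.

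Upstream sequences are shown for Dusp6, Etv5 and Spry2, the ERK targets whose windows hold letters of the binding site of CIC, a repressor that leaves its targets when ERK is active. CIC sites are described as TGAATGAA, TGAATGGA, TCAATGAA or TCAATGGA, around a core of TGAATG or TCAATG. The windows are the 250 bases before a RefSeq start (GRCm38.p6), written 5′ to 3′ on the strand of the gene. Capitals mark the core on either strand (its reverse complements are CATTCA and CATTGA), widened where all 8 letters match, and none of the windows holds annotated exon bases. They are chr10:99262981-99263230 on the plus strand for Dusp6, chr16:22438369-22438618 on the minus strand for Etv5 (the downstream of its 2 starts) and chr14:105896820-105897069 on the minus strand for Spry2.
Dusp6: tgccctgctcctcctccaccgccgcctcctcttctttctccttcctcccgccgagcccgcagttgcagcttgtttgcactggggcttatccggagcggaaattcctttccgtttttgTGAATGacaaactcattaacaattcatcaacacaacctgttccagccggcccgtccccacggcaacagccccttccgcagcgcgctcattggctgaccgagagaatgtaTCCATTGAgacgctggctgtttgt
Etv5: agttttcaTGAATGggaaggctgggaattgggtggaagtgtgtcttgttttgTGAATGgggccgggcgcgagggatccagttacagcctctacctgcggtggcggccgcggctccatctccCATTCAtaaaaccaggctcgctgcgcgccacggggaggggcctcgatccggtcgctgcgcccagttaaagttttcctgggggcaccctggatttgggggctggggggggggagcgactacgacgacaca
Spry2: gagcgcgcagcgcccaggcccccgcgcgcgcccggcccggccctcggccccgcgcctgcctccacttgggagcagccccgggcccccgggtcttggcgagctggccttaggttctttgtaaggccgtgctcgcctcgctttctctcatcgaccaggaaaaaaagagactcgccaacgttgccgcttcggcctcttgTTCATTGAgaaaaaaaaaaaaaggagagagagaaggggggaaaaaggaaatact
Dusp6 had 1 whole site, beginning at base -24 from the start, and 1 further core at base -133. Spry2 had 1 whole site at base -54. Etv5 had 3 cores, at bases -242, -198 and -129, and no whole site. Outside these, Fgfr2 had 1 core, and the other Etv5 window and those of Egfr, Fgfr3 and Spry1 had 0. A whole site in any of the 4 forms occurs in 3.19% of 32851 such windows and a core in 17.0%; 103 windows (0.314%) hold 3 or more cores. The cores and the forms with TCAATG were added after the letters had been read. Windows were found for 7 members (Egfr, Fgfr2, Fgfr3, Spry1, Spry2, Dusp6 and Etv5). On both strands, none of them held the ETS letters CCGGAAGT (2.88% of all windows), the CIC forms TGAATGAA or TGAATGGA (2.07%), the AP-1 letters TGANTCA (6.75%) or the CRE TGACGTCA (1.55%). A match describes the letters only.

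Heterozygosity for E147A was compared with +/+ over both sexes by edgeR's quasi-likelihood test, with Benjamini-Hochberg adjustment over all tested genes. None of the 10 members passed an adjusted p of 0.05, against 0.0818% of all genes, and 1 of 10 had an unadjusted p under 0.05, against 5.9%. Of the members, 6 had a positive and 4 a negative log2 fold change, with a median of 0.026 (-0.01397 over all genes). The receptors' log2 fold changes were 0.03 for Egfr (SE 0.16), 0.13 for Fgfr1 (SE 0.12), -0.71 for Fgfr2 (SE 0.25, unadjusted p = 0.0193, adjusted p = 0.763) and -0.55 for Fgfr3 (SE 0.42, adjusted p = 0.824). The Fgfr3 value was -0.035 without female +/+ replicate 2 and -0.84 without female +/+ replicate 1. For the inhibitors they were -0.12 for Spry1 (SE 0.12), 0.02 for Spry2 (SE 0.12), 0.29 for Spry4 (SE 0.14, unadjusted p = 0.0691, adjusted p = 0.821) and -0.48 for Dusp6 (SE 0.30, adjusted p = 0.824), which was -0.20 without male +/+ replicate 3. For the ETS factors they were 0.04 for Etv4 (SE 0.12) and 0.30 for Etv5 (SE 0.17, adjusted p = 0.821). Differences of Egfr, Fgfr1, Spry1, Spry2 and Etv4 were thus about as large as their standard errors or smaller.

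In males no member passed (0.0234% of all genes did), and 1 had an unadjusted p under 0.05 (3.44% of all genes). This was Spry4, at 513.0 ± 107.2 CPM (SD, n = 3) in E147A/+ and 368.2 ± 47.8 (SD, n = 3) in +/+, with a log2 fold change of 0.48 (SE 0.18; edgeR adjusted p = 0.9996). Fgfr1 and Spry4 were higher in E147A/+ with no overlap between the male groups, as were 3.2% of all genes, and no member was lower with no overlap (3.96% of all genes).

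In females, too, no member passed (0.0117% of all genes did), and 1 had an unadjusted p under 0.05 (4.36% of all genes). This was Fgfr2, at 5.18 ± 0.716 CPM (SD, n = 2) in E147A/+ and 16.5 ± 0.943 (SD, n = 2) in +/+, a log2 fold change of -1.67 (SE 0.40; edgeR adjusted p = 0.797). DESeq2 gave -1.67 with an adjusted p of 0.0217, the only call of a member in any comparison of genotype with that tool, which called 0.27% of all genes in females. Fgfr3 had a log2 fold change of -1.38 (SE 0.66, unadjusted p = 0.0627 in edgeR). With 2 libraries a group many genes separate: 19.3% of all genes were lower in E147A/+ with no overlap, as were Fgfr2, Fgfr3, Spry1 and Dusp6, and 21.8% were higher, as was Spry4. Some marker sums also separated the female groups. In E147A/+ against +/+, oligodendrocyte lineage markers were at 85.44 to 129.6 against 177.7 to 236.5 CPM. Proliferation markers were at 1380 to 1438 against 1793 to 2149 CPM. Astrocyte markers were at 103.0 to 117.8 against 40.2 to 77.76 CPM, and endothelial markers at 0.9478 to 1.963 against 3.184 to 3.211 CPM. The other lists overlapped, and the part of these markers in the Fgfr2 difference was not tested. Genotype and litter cannot be told apart here.

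The difference between the sexes in the genotype effect was tested as an interaction. No member passed, as no gene did (0%), and 1 member had an unadjusted p under 0.05 (1.84% of all genes). This was Fgfr2 again, whose log2 fold change was 1.92 higher in males than in females (SE 0.51, unadjusted p = 0.00377, adjusted p = 0.999 in edgeR).

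Across all 10 cultures Spry4 was the one member whose genotypes did not overlap. It was higher in E147A/+, as were 0.695% of all genes, while 0.742% were lower. Litters 1 and 3 hold both genotypes, and within them the log2 ratio of E147A/+ to +/+ for Spry4 was 0.50 in litter 1 (447.1 against 315.2 CPM) and 0.59 in litter 3 (636.7 against 423.6 CPM). For Dusp6 the same ratios were 0.27 and -0.26, for Fgfr2 -0.43 and 0.36, and for Fgfr3 -0.14 and 0.68. The latter 3 had opposite signs in the 2 litters, as did Egfr (0.09 and -0.29), Fgfr1 (0.15 and -0.01) and Spry1 (-0.07 and 0.04), while Spry2 (0.02 and 0.23), Etv4 (0.10 and 0.20) and Etv5 (0.41 and 0.03) had, like Spry4, a positive ratio in both; for Spry4 that sign follows from its genotypes not overlapping. Litter 1 gives 3 E147A/+ and 1 +/+ cultures and litter 3 gives 1 and 3, so these ratios have no test of their own. They also mix the sexes: the litter 1 +/+ and the litter 3 E147A/+ cultures were male, and their counterparts were of both sexes. Among males alone, Fgfr1 and Fgfr3 were higher in E147A/+ in both litters, as were Spry2, Spry4 and Etv5 and, by its mean, Etv4. Fgfr1 was at 242.2 and 234.6 against 223.8 CPM in litter 1, and at 226.2 against 188.7 CPM in litter 3. Fgfr3 was at 196.5 and 187.8 against 181.4 CPM, and at 316.1 against 70.2 CPM. By their means, Dusp6, Fgfr2, Egfr and Spry1 kept opposite signs there.

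**Figure D2:**
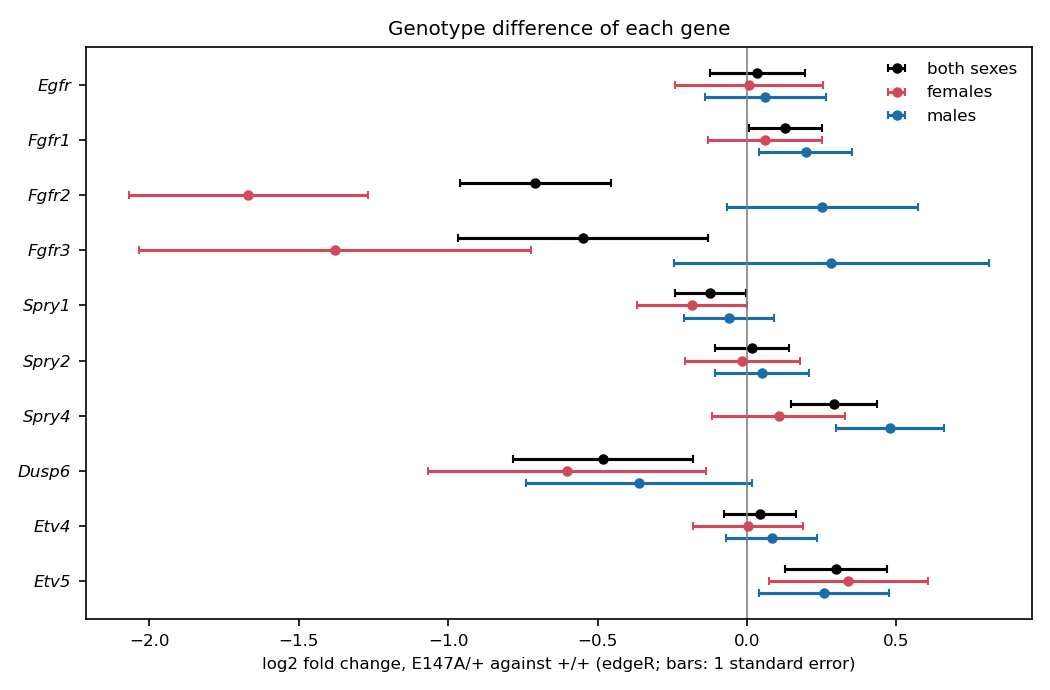
Log2 fold change of E147A/+ against +/+ (x axis; edgeR, with bars of 1 standard error) for each gene (y axis), over both sexes, in females and in males. Fgfr2 stands at -1.67 in females and -0.71 over both sexes, and Spry4 at 0.48 in males.

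Litter was followed further for Dusp6, since its 4 highest cultures were litter mates; this comparison was added after the values had been seen. In litter 1 (n = 4) Dusp6 ran from 153.0 to 189.6 CPM and in litter 3 (n = 4) from 290.0 to 484.4 CPM, in both sexes and genotypes. The single cultures of litters 2 and 4 were between, at 238.7 and 242.7 CPM. With litter added to the edgeR model, the log2 difference of litter 3 from litter 1 was 1.14 (SE 0.24, unadjusted p = 0.00201, adjusted p = 0.11), an estimate that rests on the 5 male cultures of those litters. With 1 library left out it ran from 0.73 to 1.66. Without the filter on low counts the adjusted p was 4.82e-06, under a setting that called 4.96% of all genes. No member passed with the filter (0.111% of all genes did), and Dusp6 and Spry4 had an unadjusted p under 0.05, against 17% of all genes. Dusp6 and Spry1 were higher in litter 3 with no overlap, as were 9.67% of all genes, and no member was lower with no overlap (11.4% of all genes). For Dusp6 this follows from the order that led to the comparison, and its p-values rest on the same values. Spry1 ran from 187.6 to 226.2 CPM in litter 1 and from 234.3 to 257.3 CPM in litter 3 (log2 difference 0.21, SE 0.15, adjusted p = 0.514). Its difference was 0.11 without male E147A/+ replicate 3. No litter held both female genotypes, so a litter term makes the female genotype difference use the litter difference found in males. With litter in the model the genotype difference of Dusp6 over both sexes was 0.09 in place of -0.48. The same term took Fgfr2 from -0.71 to -0.36, Fgfr3 from -0.55 to -0.23, Etv5 from 0.30 to 0.11 and Spry4 from 0.29 to 0.52, and none of them passed.

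Other genes of the pathway were read from a list of 84 in 5 roles, of which 77 were tested. None passed an adjusted p of 0.05 for genotype in edgeR over both sexes, in females, in males or in the interaction; 8, 4, 5 and 3 of the 77 had an unadjusted p under 0.05, against 5.9%, 4.36%, 3.44% and 1.84% of all genes. The 3 with the lowest p over both sexes were Tgfa, an EGFR ligand (log2 fold change -1.09, SE 0.36, adjusted p = 0.728), Erbb4, a neuregulin receptor (-1.10, SE 0.39, adjusted p = 0.752), and Egr2, a zinc finger factor induced by ERK (-1.04, SE 0.39, adjusted p = 0.786).

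By litter, the 22 nuclear effectors and ERK-induced genes were the role with most genes apart. Of these, 8 (Fos, Junb, Egr1, Egr2, Ier2, Myc, Srf and Lif) were higher in all litter 3 than in all litter 1 cultures and 0 were lower, against 9.67% and 11.4% of all genes. Over all 77 listed genes 11 were higher and 9 lower with no overlap; among inhibitors it was 0 and 3 of 15, and among signal transducers 2 and 4 of 23. None of the 77 listed genes passed an adjusted p of 0.05. Egr1, an immediate-early transcription factor, ran from 72.33 to 103.6 CPM in litter 1 and from 187.0 to 450.1 CPM in litter 3 (log2 difference 1.89, SE 0.36, edgeR adjusted p = 0.107). Junb, an AP-1 subunit, was at most 11.2 CPM in litter 1 and at least 23.35 CPM in litter 3 (log2 difference 2.11, SE 0.26, edgeR adjusted p = 0.061). Fos reached 394.9 CPM in male +/+ replicate 1, the litter 4 culture, and was at most 31.62 CPM in the others. Dusp6 in the litter 4 culture was 242.7 CPM, near its median of 240.7 CPM. Of the 10 marker sums, 2 also separated the litters: ventral telencephalon markers were at 136.1 to 168.0 CPM in litter 1 and 80.09 to 133.6 CPM in litter 3, and endothelial markers at 0.6362 to 2.331 CPM and 2.493 to 3.746 CPM. The part of these markers and of the immediate-early genes in the litter differences was not tested.

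**Figure D3:**
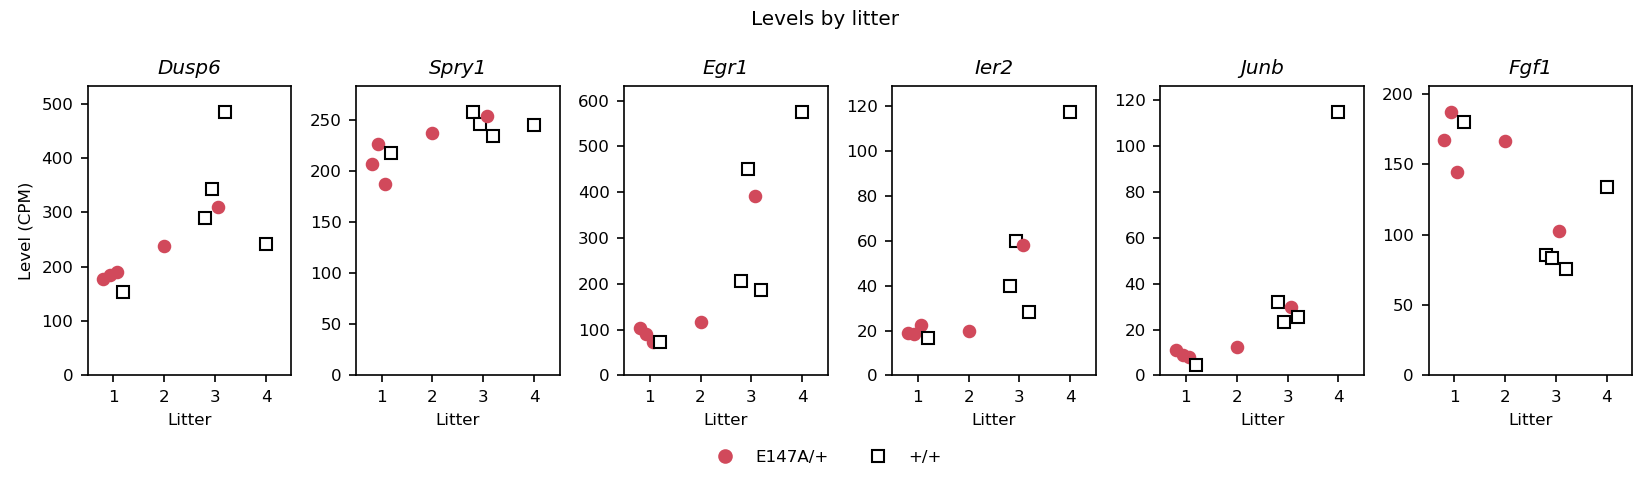
Level in CPM (y axis, from 0) of Dusp6, Spry1, Egr1, Ier2, Junb and Fgf1 against litter (x axis; litters 2 and 4 have 1 culture each), with points marked by genotype. Litter 1 and litter 3 do not overlap for any of the 6, which were picked after their values were seen. Fgf1 is the one that is lower in litter 3. Among the 77 listed pathway genes tested, 11 were higher and 9 lower in litter 3 with no overlap.

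Covariation over cultures was measured as Pearson's r and Spearman's rho of log2 CPM for all 45 pairs of members, each with a 2-sided permutation test and adjustment over the 45. No pair passed; the lowest adjusted p was 0.23 for r and 0.349 for rho, and 3 pairs had an unadjusted p under 0.05 for r. Of the 45 values of r 25 were positive, with a median of 0.105, and the median size of r was 0.258, against 0.327 for members with all other tested genes. The 15 pairs among the 6 ERK targets had a median r of 0.0468, from -0.46 to 0.73. The ERK targets thus showed no common direction of covariation in these cultures: Dusp6 had an r of -0.46 with Spry2, -0.37 with Etv4 and -0.38 with Etv5, and Etv4 with Etv5 had 0.05.

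The closest pair was Egfr with Fgfr1 (r = 0.81, permutation p = 0.00511, adjusted p = 0.23; rho = 0.71, permutation p = 0.0261, adjusted p = 0.349). Without the 2 cultures farthest from the median of Egfr r was 0.82, and within the 6 male cultures it was 0.57 (exact permutation p = 0.225). As deviations from litter means in litters 1 and 3 r was 0.86. Fgfr3 with Spry2 had r = 0.76 (permutation p = 0.0105, adjusted p = 0.237; rho = 0.71, permutation p = 0.0263), 0.87 without the 2 farthest cultures, 0.94 in males (exact permutation p = 0.00556, adjusted p = 0.125) and 0.87 as litter deviations. Spry2 with Etv4 had r = 0.73 (permutation p = 0.0164, adjusted p = 0.246; rho = 0.60, permutation p = 0.0742), and 0.49 without the 2 cultures farthest from the median of Spry2. It was 0.88 in males (exact permutation p = 0.0167, adjusted p = 0.25) and 0.62 as litter deviations. Spry1 with Dusp6 had r = 0.62 (permutation p = 0.057, adjusted p = 0.452), and -0.56 as litter deviations (8 cultures, exact permutation within litters, adjusted p = 0.539); both genes were higher in litter 3, as given above.

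Taken as deviations from the means of the 4 groups, the highest r were those of Egfr with Fgfr1 (0.87), Spry2 with Etv4 (0.86), Fgfr3 with Spry2 (0.85) and Spry4 with Dusp6 (0.83, against 0.29 without that step). Spry4 with Dusp6 had an r of -0.08 as litter deviations and of -0.41 without the 2 farthest cultures. The r of group deviations are given as values only: within groups there are 144 orders of the cultures, so an exact permutation p cannot go below 0.00694, which is too coarse for adjustment over 45 pairs.

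**Figure D4:**
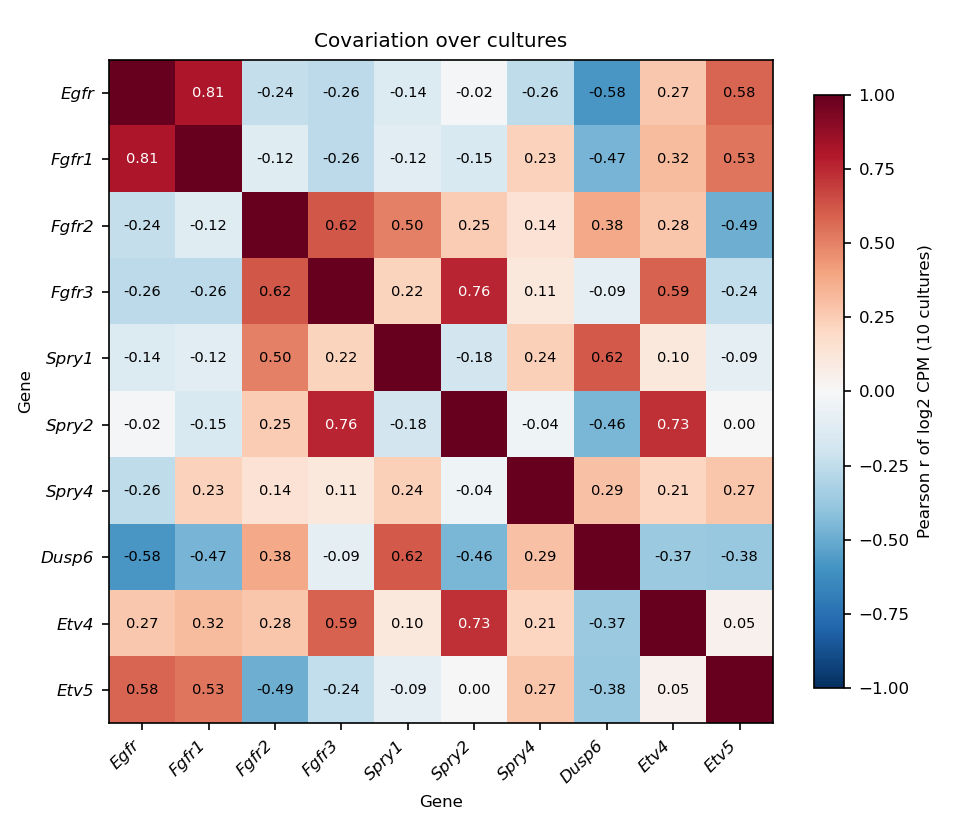
Pearson's r of log2 CPM over the 10 cultures for each pair of genes (rows and columns; colour scale and printed value give r). Egfr with Fgfr1 (0.81), Fgfr3 with Spry2 (0.76) and Spry2 with Etv4 (0.73) are the highest, and the 15 pairs of ERK targets take both signs.

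For each member, tested genes with the most similar pattern were found by r over the 10 cultures, as a description; up to 3 are named. For the receptors they were Hdac4, Arid1b and Sptbn5 for Egfr (r from 0.95 to 0.92), Efemp2, Gdpd2 and Tet2 for Fgfr1 (0.94 to 0.91), Hvcn1 and Stac for Fgfr2 (both 0.94), and Rgs20, Aldh1b1 and Slit2 for Fgfr3 (0.98 to 0.97). For the inhibitors they were Dlgap2, Gm5845 and Pramef8 for Spry1, Nrn1 and Lipa for Spry2, Pcdhb6, Gm12366 and Sh2b3 for Spry4, and Gna11, Gm16380 and Nif3l1 for Dusp6. For the ETS factors they were Smim20, Sorbs3 and Trim9 for Etv4 and Ahdc1, Gm4798 and Mast4 for Etv5. Members were left out of this search. These r are the highest of 17110 tested genes over 10 cultures, so they are high partly by selection. Some of the genes were scarce, such as Sptbn5 (at most 0.9377 CPM) and Gm5845 (at most 0.9973 CPM).

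The 4 female libraries also had counts assigned to the 129 or the Cast allele. Of the 40 Cast shares (10 genes in 4 cultures), 15 were under 5%, 19 were between 35% and 65%, and 6 were outside both ranges. The labels give every embryo a Castaneus father, which would put a Cast copy at each of these autosomal loci; how reads were assigned to alleles is not given in the sources used here. The share of a member followed its neighbourhood: 34 of 40 fell in the same class as the median of genes within 5 Mb, and 38 of 40 lay within 15 percentage points of it. Intervals below are 95% Wilson intervals, which cover counting error only.

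Egfr had a Cast share of 0.167% (interval 0.0907 to 0.307) and 0.129% (0.0623 to 0.265) in the 2 female E147A/+ cultures and 52.7% (51.4 to 54.0) and 49.3% (47.8 to 50.8) in the 2 female +/+ cultures. Its total level was 395.9 ± 29.6 CPM (SD, n = 2) and 393.7 ± 110.6 (SD, n = 2), a difference within the spread. Fgfr3 had a share of 54.0% (52.2 to 55.9) only in female +/+ replicate 2 and at most 0.319% in the other 3. That culture had most Fgfr3 of all, with 33.49 CPM on 129 and 39.38 on Cast, while 129 counts in the other 3 were 21.62, 18.96 and 24.01 CPM. Genes within 5 Mb had Cast shares near 0 in those 3 (medians of 0.131% to 0.307%), so how many 129 copies their counts come from is not known here. Etv5 had a share of 0.0674% (0.0377 to 0.121) in female E147A/+ replicate 2, where its total was the highest of all (728.1 CPM), and 40.4% to 43.4% in the other 3. Dusp6 had shares of 0.425% and 54.4% in the E147A/+ females and of 1.4% and 54.6% in the +/+ females, so both genotypes had 1 culture near 0 and 1 near 50%.

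Fgfr2 had few allelic counts, 59 to 163 per library, and its shares were 50.7% (39.1 to 62.3), 0 of 59 counts (0 to 6.11, and a floor of 3 counts would be 5.08%), 0.662% (0.117 to 3.66) and 36.8% (29.8 to 44.4) in the order female E147A/+ replicates 1 and 2 and female +/+ replicates 1 and 2. Fgfr1 was near 50% in female E147A/+ replicate 2 alone (46.4%, 44.7 to 48.1) and Spry4 in that culture (53.1%) and in female +/+ replicate 1 (49.8%). A pair of values stood more than 15 points from their neighbours. Spry1 in female E147A/+ replicate 1 was at 28.8% (27.3 to 30.4), where genes within 5 Mb had a median of 1.76% and genes within 2 Mb one of 13.5%. Spry2 in female +/+ replicate 2 was at 16.0% (14.0 to 18.3), where the medians were 0.351% and 9.38%. Etv4 had 7.68% to 10.1% in all 4 cultures, where neighbours had medians of 0.18% to 2.01%.

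**Figure D5:**
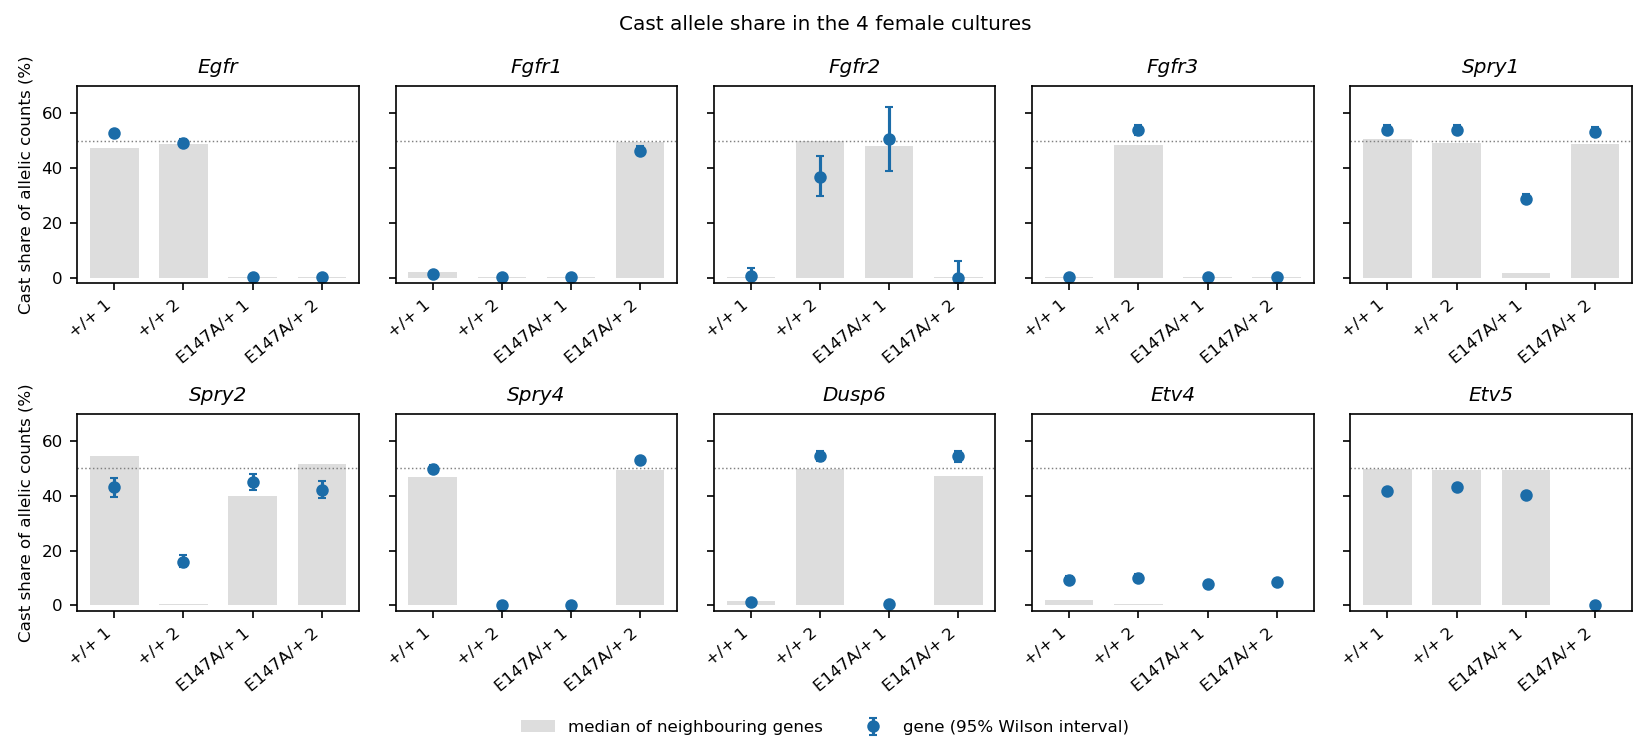
Cast share of allelic counts in percent (y axis) for each gene in the 4 female cultures (x axis), with 95% Wilson intervals, beside the median of genes within 5 Mb as a bar. Shares mostly lie near 0 or near 50% with the neighbours; Etv4 (7.68% to 10.1%) lies above its neighbours in all 4 cultures, and Spry1 in female E147A/+ replicate 1 (28.8%) and Spry2 in female +/+ replicate 2 (16.0%) lie above theirs.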

How the data were processed

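Poly(A) RNA libraries were made with a stranded TruSeq kit and sequenced as paired 80-base reads, per the labels' protocols. Raw gene counts were deposited for all 10 libraries by the authors, with allele-assigned counts for the 4 female ones. Per the submitters' processing notes, which give no order, the tools were Trim Galore 0.4.4, HISAT2 2.0.5, featureCounts, R 3.5.1 and edgeR 3.24.0, with the GRCm38 and mm10 builds; neither strand use in counting nor how alleles were assigned is given in the sources used here. Unread columns of sample values numbered 0.

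Libraries were grouped from their titles; each is a separate embryo and culture. Counts were filtered with filterByExpr, TMM-normalised and tested with edgeR 4.0.16 (R 4.3.3) by the quasi-likelihood F test, with 1 mean per group over all 10 libraries (6 residual degrees of freedom). Adjusted p-values are Benjamini-Hochberg over 17110 genes, with a threshold of 0.05. SE was taken as the size of the log2 fold change over the root of its F value. Correlations used log2 CPM with a prior count of 2, and 100000 permutations (all 720 orders for the 6 males; for deviations from group or litter means, all orders within groups or litters). Exon lengths came from GENCODE on GRCm38, and promoters from RefSeq GRCm38.p6. The members, the gene lists and the tests were chosen with earlier results of these data known. Genes named are the members, Smchd1, the 3 pathway genes with the lowest p, and up to 3 genes among those most like each member (some are not reported here); the pathway genes named by litter were chosen after their values were seen. Alternatives were RLE factors, DESeq2 1.42.0, no filter, a prior count of 0.5, fits on just the 2 groups at issue, a litter term, a replicate block, another transcript length and leaving out each library. On simulated counts with a difference over both sexes (16791 genes), 91% of 100 genes with a log2 change of 3 and 41% of 100 with a log2 change of 1 were recovered, with 4 false calls.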

Additional observations from a re-analysis of the deposited data

How the results depend on the processing

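For each of the 10 members the genotype difference over both sexes was computed under 17 alternatives, and none passed the threshold under any. Spry4 stayed positive (0.20 to 0.52) and Fgfr2 negative (-0.93 to -0.37), as did Fgfr3 (-0.84 to -0.035). With litter as a covariate, where the female part uses the litter difference found in males, Dusp6 turned from -0.48 to 0.095. Egfr turned from 0.03 to -0.13 under the same covariate. Leaving out 1 library gave Dusp6 from -0.64 to -0.20, Egfr from -0.10 to 0.20, Spry2 from -0.041 to 0.084 and Etv4 from -0.026 to 0.13. It gave Fgfr1 from 0.022 to 0.26, Spry1 from -0.17 to -0.062 and Etv5 from 0.18 to 0.45. The r of Spry1 with Dusp6 was -0.56 as litter deviations.

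Counts of genes past the threshold, in the order both sexes, females, males and interaction, were 14, 2, 4 and 0. They were 113, 46, 48 and 2 in DESeq2 (1 member, Fgfr2, in females), 33, 8, 14 and 0 with no filter, 3, 0, 2 and 1 with litter as a covariate, and 4, 0, 2 and 1 with litters 1 and 3 only. Fitting just the groups at issue left 1 in males and 1 in females. The replicate block gave 5, 0, 2 and 0, and no member was called; same-numbered libraries are different embryos whose deviations correlated at -0.304 in females and at -0.238, 0.416 and 0.0341 in males, so the numbers were not taken to pair them. With the female numbers crossed in the replicate block, an alternative chosen after the data were seen, they were 6, 0, 3 and 0. Leaving out 1 library gave 2 to 12 over both sexes (2 without female E147A/+ replicate 2), 0 to 2 in females, 1 to 4 in males and 0 to 1 in the interaction. RLE factors gave the same counts as TMM.

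The litter comparison had 19 genes past the threshold, 1407 with no filter, and 0 to 19 with 1 library left out; it reached 0 without any 1 of male E147A/+ replicates 2 and 3 and male +/+ replicates 2 and 3. The Dusp6 difference between litters then ran from 0.73 to 1.66. Among correlations, 0 to 1 pairs passed with 1 library left out (Fgfr3 with Spry2 at r = 0.91, without female +/+ replicate 2). The highest member median per kilobase was 145.9 times the lowest, and 62.57 times with the longest transcript as length. The causes of these changes were not tested. Depth limits mainly Fgfr2, with 202 counts in its lowest library.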

Other observations

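Ligands of these receptors were also transcribed in the cultures, beside the recombinant factors in the medium. Fgf1, which binds all FGF receptors, was at 167.2 and 166.6 CPM in E147A/+ females, 85.81 and 83.23 in +/+ females, 186.7, 144.2 and 102.6 in E147A/+ males, and 133.9, 179.5 and 75.67 in +/+ males. It was lower in all 4 litter 3 cultures than in all 4 litter 1 cultures (log2 difference -0.92, SE 0.20, edgeR adjusted p = 0.115), the opposite order from Dusp6. Hbegf, an EGFR ligand that ERK signalling induces, had the order of Dusp6, at 28.31 to 33.19 CPM in litter 1 and 37.94 to 88.76 CPM in litter 3 (log2 difference 1.29, SE 0.20, edgeR adjusted p = 0.0808). Transcripts of the factors supplied in the medium were low: Egf ran from 0.698 to 2.173 CPM and Fgf2 from 1.965 to 7.208 CPM. These genes were picked after their values had been seen.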
